A study of Mus musculus with 4 samples.

Results

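The genes described here handle reactive oxygen, glutathione, thiol redox and aldehydes in natural killer (NK) cells of the mouse liver. They were chosen by name, as rows whose gene symbol starts with Gst, Aldh, Gpx, Prdx or Txn, together with Gclc, Gclm, Gsr, Gss, Sod1, Sod2, Cat, Hmox1, Srxn1, Nfe2l2, Keap1, Osgin1 and As3mt, with letter case ignored because the files write symbols in capitals. This gave 89 of 21025 rows. The row written as PRDXDD1 met the rule by its letters, but RefSeq names that gene Prorsd1, after a prolyl-tRNA synthetase domain, so it was kept in the counts and is not read as a peroxiredoxin. Likewise RefSeq names TXNDC3 Nme8.

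RNA had been sequenced from freshly sorted liver cells of C57BL/6 mice, in 2 libraries of TRAIL+ cells and 2 libraries of CD49b+ cells. TRAIL+ cells carried the death ligand TRAIL and lacked CD49b, and CD49b+ cells carried CD49b and lacked TRAIL. Both were gated as TCRb-negative, NK1.1-positive and NKp46-positive, so neither group holds a treatment, a mutation or a knockout. Age, sex and any pooling of mice are not stated in the labels, nor whether replicates came from separate mice. The p-values therefore reflect only how far these libraries vary, and that variation may be technical. The gate gene Tnfsf10, which encodes TRAIL, stood at 208 and 189 RPKM (reads scaled to gene length and to library size) in TRAIL+ libraries, against 7.26 and 6.94 RPKM in CD49b+ libraries. The CD49b gene Itga2 had 5.26 and 1.55 RPKM in TRAIL+ libraries, against 52.1 and 37.0 RPKM in CD49b+ libraries.

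As background, cells make glutathione from amino acids with the ligase encoded by Gclc and Gclm and the synthase encoded by Gss, and Gsr returns its oxidised form to the reduced one. Glutathione transferases join it to electrophiles, glutathione peroxidases use it to reduce peroxides, and peroxiredoxins reduce peroxides with electrons from thioredoxin. The transcription factor NRF2, encoded by Nfe2l2, is held low by Keap1 and switches on many of these genes when cells meet electrophiles, and aldehyde dehydrogenases oxidise aldehydes left by lipid peroxidation and metabolism. In liver, hepatocytes are the classic site of this chemistry.

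The library sizes behind the RPKM values, worked out from the values themselves, were 3786497 to 4232967 reads. At these sizes a gene 1 kilobase long had 3.79 to 4.23 reads for each RPKM. Reads summed over all rows were more in each library, 3940694 to 4409392, and the reason was not tested. Markers of hepatocytes, myeloid cells and red cells were present, and the levels of several differed between replicates. Lyz2, a myeloid lysozyme gene, stood at 81.9 and 9.21 RPKM in TRAIL+ replicates 1 and 2 and at 122 and 8.87 RPKM in CD49b+ replicates 1 and 2. The hepatocyte gene Alb stood at 12.7 and 1.92 RPKM in TRAIL+ libraries and at 14.8 and 0.865 RPKM in CD49b+ libraries, so replicate 1 was the higher library in both groups. Other markers differed between the groups instead. The transferrin gene Trf stood at 83.1 and 96.9 RPKM in TRAIL+ libraries and 21.2 and 22.1 RPKM in CD49b+ libraries. The complement gene C1qa stood at 5.21 and 4.38 RPKM in TRAIL+ libraries and 1.31 and 0 RPKM in CD49b+ libraries. The NK genes Ncr1 and Klrb1c stood at 901 to 1246 RPKM in TRAIL+ libraries and 1011 to 1253 RPKM in CD49b+ libraries. Because these are bulk samples, fewer cells of a type and less RNA per cell cannot be told apart.

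Most of the detoxification genes that were tested showed no difference between the subsets that passed the test. Osgin1, Prdx6 and Gstm5 rose in TRAIL+ cells, whereas As3mt, Aldh2, Gpx8, Gstm1 and Txndc5 fell. The calls of Osgin1, As3mt, Aldh2 and Gpx8 held under every alternative processing that was run. Those of Prdx6, Gstm5, Gstm1 and Txndc5 were each lost in at least 1 alternative. Of the 89 members, 15 had no read in any library, 15 had reads but stayed under the minimum of 1 RPKM in at least 2 libraries, and 59 were tested. Among those 59, 3 were higher and 5 were lower in TRAIL+ cells and 51 did not pass (limma on log2(RPKM + 1), Benjamini-Hochberg adjusted p threshold of 0.05 over 10047 genes, n = 2 per group). This is 13.6% of tested members, beside 8.62% of all tested genes, of which 4.76% were higher and 3.86% were lower. The median log2 fold change, TRAIL+ minus CD49b+, was -0.0061 over the tested members and 0.0050 over all tested genes. Over 2-fold differences in RPKM + 1 were found for 11 tested members, or 18.6%, beside 9.69% of all tested genes. Groups did not overlap in 31 tested members, or 52.5%, beside 46.8% of all tested genes. Gstm5 had passed the minimum only through the TRAIL+ libraries. Osgin1 and As3mt are named singly in the rule, and the members were chosen with earlier results of these data known. The shares set beside all tested genes are therefore descriptions, not a test of the set.

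**Figure D1:**
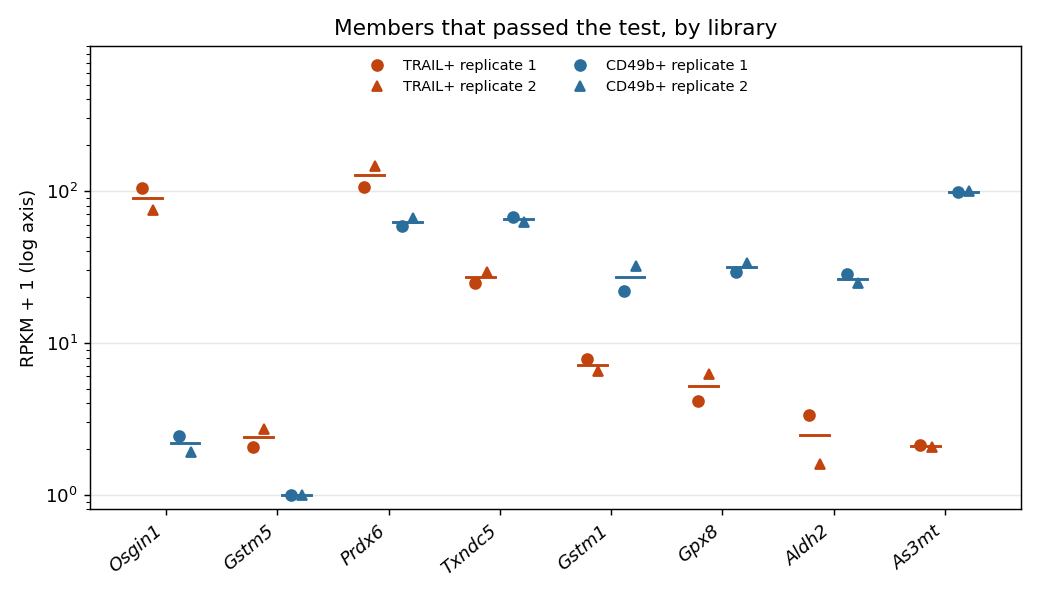
RPKM + 1 on a log axis for the 8 members that passed the test, with circles for replicate 1, triangles for replicate 2 and a bar at the mean RPKM + 1 of each group of 2 libraries. The TRAIL+ and CD49b+ libraries do not overlap for any of the 8, and the distance is widest for Osgin1 (75.9-fold) and As3mt (90.5-fold).

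Among the genes of the NRF2 pathway, Osgin1 separated the subsets most. Osgin1 encodes an oxidative stress induced growth inhibitor and is described as a gene that responds to NRF2. It stood at 104 and 74.4 RPKM (830 and 554 reads) in TRAIL+ libraries, against 1.44 and 0.905 RPKM (12 and 7 reads) in CD49b+ libraries. All TRAIL+ values were far above all CD49b+ values, a 75.9-fold ratio of means that ran from 61.8 to 98.4 with 1 library left out. The log2 fold change was 5.36 ± 0.25 (SE, limma adjusted p = 0.000565). In CD49b+ cells the gene was thus at the level of a few reads.

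NRF2 itself and its other genes in this list differed far less. Nfe2l2 stood at 37.2 and 36.5 RPKM in TRAIL+ libraries and at 31.9 and 29.3 RPKM in CD49b+ libraries. Keap1, the adaptor that marks NRF2 for degradation, stood at 32.8 and 27.0 RPKM in TRAIL+ libraries and 21.3 and 17.4 RPKM in CD49b+ libraries. Hmox1, the haem oxygenase that is a classic NRF2 target, was low in every library, at 3.58 and 2.51 RPKM in TRAIL+ cells and 2.24 and 1.13 RPKM in CD49b+ cells. For these genes the TRAIL+ libraries were higher and did not overlap with the CD49b+ libraries, yet none passed the test. Their log2 fold changes were 0.26 for Nfe2l2 (95% interval -0.13 to 0.65), 0.60 for Keap1 (0.11 to 1.09) and 0.61 for Hmox1 (-0.15 to 1.37), with limma adjusted p-values of 0.462, 0.156 and 0.371. Keap1 passed when a gene length term, an alternative added once the data had been seen, was included (adjusted p = 0.0401), and under 1 other setting given with the dependence on processing.

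The start of the 2 genes with the largest changes, Osgin1 and As3mt, and of the peroxidase gene Gpx8 is shown because their promoters could be set beside the motif that NRF2 binds. Each line gives the 250 bases before the annotated start, 5′ to 3′ on the gene's strand, from RefSeq on GRCm38.p6, a later build than the mm9 used for the reads. Osgin1 lies on the plus strand at chr8:119436897-119437146, As3mt on the plus strand at chr19:46707208-46707457 and Gpx8 on the minus strand at chr13:113046389-113046638. Capitals mark TGACTCA, the letters shared by AP-1 sites and the NF-E2 type of antioxidant element, searched on both strands.
Osgin1: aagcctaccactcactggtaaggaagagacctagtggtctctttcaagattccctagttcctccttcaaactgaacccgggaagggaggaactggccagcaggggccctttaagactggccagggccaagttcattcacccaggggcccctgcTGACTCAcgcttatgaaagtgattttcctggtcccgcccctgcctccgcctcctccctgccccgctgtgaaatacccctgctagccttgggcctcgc
As3mt: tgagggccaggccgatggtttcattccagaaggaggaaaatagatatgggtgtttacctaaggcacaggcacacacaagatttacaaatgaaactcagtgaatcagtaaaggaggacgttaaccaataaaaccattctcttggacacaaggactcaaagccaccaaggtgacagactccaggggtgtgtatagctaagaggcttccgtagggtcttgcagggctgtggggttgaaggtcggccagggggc
Gpx8: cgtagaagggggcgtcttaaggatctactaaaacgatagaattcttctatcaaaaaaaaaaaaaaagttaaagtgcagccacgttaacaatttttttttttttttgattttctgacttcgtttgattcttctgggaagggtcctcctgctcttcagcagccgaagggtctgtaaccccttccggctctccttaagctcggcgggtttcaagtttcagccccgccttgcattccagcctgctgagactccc

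The Osgin1 window holds TGACTCA once, with its first base 97 bases before the start, and the As3mt and Gpx8 windows hold none. TGACNNNGC, the form of the antioxidant response element core with C after TGA, is on neither strand of the 3 windows. The form with G in that place was not searched, so the shares given next leave it out. Read on the other strand, the TGACTCA of the Osgin1 window has G in that place and is followed by GC. The Osgin1 window therefore holds the form that was not searched. Of 95 windows of the 75 members in the RefSeq table, 13 (13.7%) hold TGACNNNGC, beside 10.2% of all 32851 windows, and the genes with it include Nfe2l2, Gclm, Prdx1, Txnrd1, Txndc5 and Gstm5. TGACTCA, added after the sequences had been seen, is in 7 of the 95 windows (7.37%), those of Osgin1, Gstm5, Gstp1, Gstp2, Prdx1, Srxn1 and Aldh1a1, beside 4.46% of all windows. The 2 motifs can share letters, and a match is a description of these letters, not a site in use.

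As3mt, which encodes the enzyme that methylates arsenite with S-adenosylmethionine, fell most of all members in TRAIL+ cells by ratio. It stood at 1.12 and 1.05 RPKM (8 and 7 reads) in TRAIL+ libraries, against 96.9 and 99.0 RPKM (723 and 686 reads) in CD49b+ libraries. The replicates of each group lay close together and the groups were far apart, a 90.5-fold ratio of means. The log2 fold change was -5.57 ± 0.17 (SE, limma adjusted p = 0.000301). With a mean of 98.0 RPKM, As3mt in CD49b+ cells was at the level of the peroxiredoxin gene Prdx1, at 91.3 and 102 RPKM in the same libraries.

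Among the aldehyde dehydrogenases, Aldh2 fell in TRAIL+ cells and the others did not pass. Aldh2 encodes the mitochondrial enzyme that oxidises acetaldehyde and aldehydes from lipid peroxidation. It stood at 2.32 and 0.595 RPKM (21 and 5 reads) in TRAIL+ libraries, against 27.2 and 23.7 RPKM (256 and 207 reads) in CD49b+ libraries. These read counts rest on a gene length that was not within 10% of an annotated one. Both TRAIL+ libraries were below both CD49b+ libraries, and the log2 fold change was -3.52 ± 0.37 (SE, limma adjusted p = 0.00493). The ratio of means was 17.5, and it was 10.97 without TRAIL+ replicate 2 and 42.8 without TRAIL+ replicate 1, since the 2 TRAIL+ libraries themselves differed. TRAIL+ replicate 1, with the higher Aldh2 level, was also the TRAIL+ library with the higher Alb level, and the part of this in the spread was not tested.

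Of 19 aldehyde dehydrogenase genes, 9 were tested. Aldh3a2, the fatty aldehyde dehydrogenase, stood at 36.0 and 34.6 RPKM in TRAIL+ libraries and 39.6 and 43.0 RPKM in CD49b+ libraries. Aldh9a1 stood at 30.4 and 31.9 RPKM in TRAIL+ libraries and 35.4 and 32.3 RPKM in CD49b+ libraries. Aldh18a1, which makes a proline precursor, stood at 23.7 and 24.4 RPKM in TRAIL+ libraries and 33.7 and 30.7 RPKM in CD49b+ libraries. In all 3 the TRAIL+ libraries were lower without overlap, by small differences of -0.22, -0.12 and -0.41 on the log2 scale (limma adjusted p = 0.556, 0.803 and 0.238). Aldh16a1, Aldh4a1, Aldh6a1, Aldh7a1 and Aldh1b1 had levels of 1.54 to 15.3 RPKM and log2 fold changes of -0.08 to 0.36.

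The retinaldehyde dehydrogenase genes were near the limit of detection. Aldh1a1 had 3 and 1 reads in TRAIL+ libraries and 6 and 0 reads in CD49b+ libraries. Aldh1a2 had no read in either TRAIL+ library and 6 and 0 reads in CD49b+ libraries, and Aldh1a3 had 0 and 0 reads in TRAIL+ libraries against 1 and 1 in CD49b+ libraries. At these depths no difference in these 3 genes was detectable. Aldh3a1, a known target of the aryl hydrocarbon receptor, and Aldh1l2 had no read in any library.

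Among the glutathione transferases, Gstm1 fell and Gstm5 rose in TRAIL+ cells, and 8 of 10 tested members did not pass. The share that passed was 20%, beside 8.62% of all tested genes. It counts Gstm5, which met the minimum RPKM only through the TRAIL+ libraries, where it is high. Gstm1, of the mu class, stood at 6.80 and 5.48 RPKM (36 and 27 reads) in TRAIL+ libraries, against 20.9 and 31.1 RPKM (115 and 159 reads) in CD49b+ libraries. The groups were well apart, and the log2 fold change was -1.90 ± 0.25 (SE, limma adjusted p = 0.00992), a 4.23-fold ratio. It did not pass when CD49b+ replicate 2 was left out (adjusted p = 0.0617). Of the 50-base windows of the Gstm1 transcript, 23.1% also occur in other genes, mostly the pseudogene Gstm2-ps1 and Gstm3, so some of its reads could be split among copies. Gstm2, Gstm3 and Gstm6 had no read in any library.

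Gstm5, another mu class gene, had 4 and 6 reads in TRAIL+ libraries and 0 and 0 reads in CD49b+ libraries. Its level was 1.07 and 1.72 RPKM in TRAIL+ cells. Against a floor of 3 reads over the CD49b+ libraries this is a 3.46-fold ratio, which leaves out the counting error of the TRAIL+ reads. The limma adjusted p was 0.0467, and it was above the threshold in 5 of the 12 alternatives that gave a value, among them 0.0516 with voom on whole reads. None of the 50-base windows of the Gstm5 transcript occur in another gene.

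Gstt2, of the theta class, was the transferase closest to the threshold among those that missed it. It stood at 9.11 and 14.2 RPKM in TRAIL+ libraries and at 4.64 and 5.18 RPKM in CD49b+ libraries, without overlap (log2 fold change 1.07, 95% interval 0.42 to 1.72, limma adjusted p = 0.0707). Its log2 fold change was 1.37 without TRAIL+ replicate 1. It passed with the gene length term (limma adjusted p = 0.0203) and with a replicate block, a term for replicate number (0.00690). Gsto1 of the omega class stood at 17.0 and 21.3 RPKM in TRAIL+ libraries and 18.2 and 22.2 RPKM in CD49b+ libraries. Gstp1 of the pi class stood at 16.7 and 26.0 RPKM in TRAIL+ libraries and 13.8 and 15.6 RPKM in CD49b+ libraries. Gstp1 shares 62.3% of its transcript windows with other genes, chiefly its copy Gstp2, which was listed at 0 in each library, so the Gstp1 level could hold reads of both. Gstm4, Gstk1, Gstz1, Gstt1 and Gstcd lay between 0.907 and 10.6 RPKM. The alpha class, which is abundant in hepatocytes, was nearly absent, with 3 and 0 reads of Gsta3 in TRAIL+ libraries and 13 and 1 reads in CD49b+ libraries. In both groups the Gsta3 reads lay in replicate 1, the library with more Alb, and their origin was not tested.

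The genes of glutathione synthesis and recycling showed no difference that passed the test. Gclc, the catalytic subunit of the rate-limiting ligase, stood at 9.91 and 7.14 RPKM in TRAIL+ libraries and 11.96 and 10.8 RPKM in CD49b+ libraries. Gclm, its modifier subunit, stood at 7.82 and 6.62 RPKM in TRAIL+ libraries and 11.8 and 8.61 RPKM in CD49b+ libraries. Both subunits were lower in both TRAIL+ libraries, by -0.39 (95% interval -0.95 to 0.16) and -0.44 (-1.01 to 0.14) on the log2 scale, with limma adjusted p-values of 0.438 and 0.396. Gss stood at 5.38 and 6.64 RPKM in TRAIL+ libraries and 5.81 and 5.85 RPKM in CD49b+ libraries. Gsr stood at 18.5 and 17.0 RPKM in TRAIL+ libraries and 16.7 and 21.1 RPKM in CD49b+ libraries. Groups overlapped for Gss and Gsr. Of the 4 genes, 0 had an unadjusted limma p under 0.05, beside 2006 of all 10047 tested genes, and voom also called 0.

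Among the glutathione peroxidases, Gpx8 fell in TRAIL+ cells and the abundant members did not pass. Gpx8 is a membrane protein of the endoplasmic reticulum with cysteine in place of selenocysteine. It stood at 3.13 and 5.18 RPKM (13 and 20 reads) in TRAIL+ libraries, against 28.3 and 32.4 RPKM (122 and 130 reads) in CD49b+ libraries. The log2 fold change was -2.63 ± 0.25 (SE, limma adjusted p = 0.00368), a 7.30-fold ratio. Gpx1, the main cytosolic selenoenzyme, was the most abundant peroxidase, at 116 and 192 RPKM in TRAIL+ libraries and 171 and 201 RPKM in CD49b+ libraries. Gpx4, which reduces lipid peroxides in membranes, stood at 32.1 and 39.8 RPKM in TRAIL+ libraries and 27.2 and 29.9 RPKM in CD49b+ libraries. Its log2 fold change of 0.32 did not pass (95% interval -0.14 to 0.77, limma adjusted p = 0.441), and 61.7% of its transcript windows also occur in other genes, chiefly the pseudogene Gpx4-ps2. Gpx7 had 6 and 7 reads in TRAIL+ libraries and 9 and 6 reads in CD49b+ libraries, and Gpx2, Gpx5 and Gpx6 had none.

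**Figure D2:**
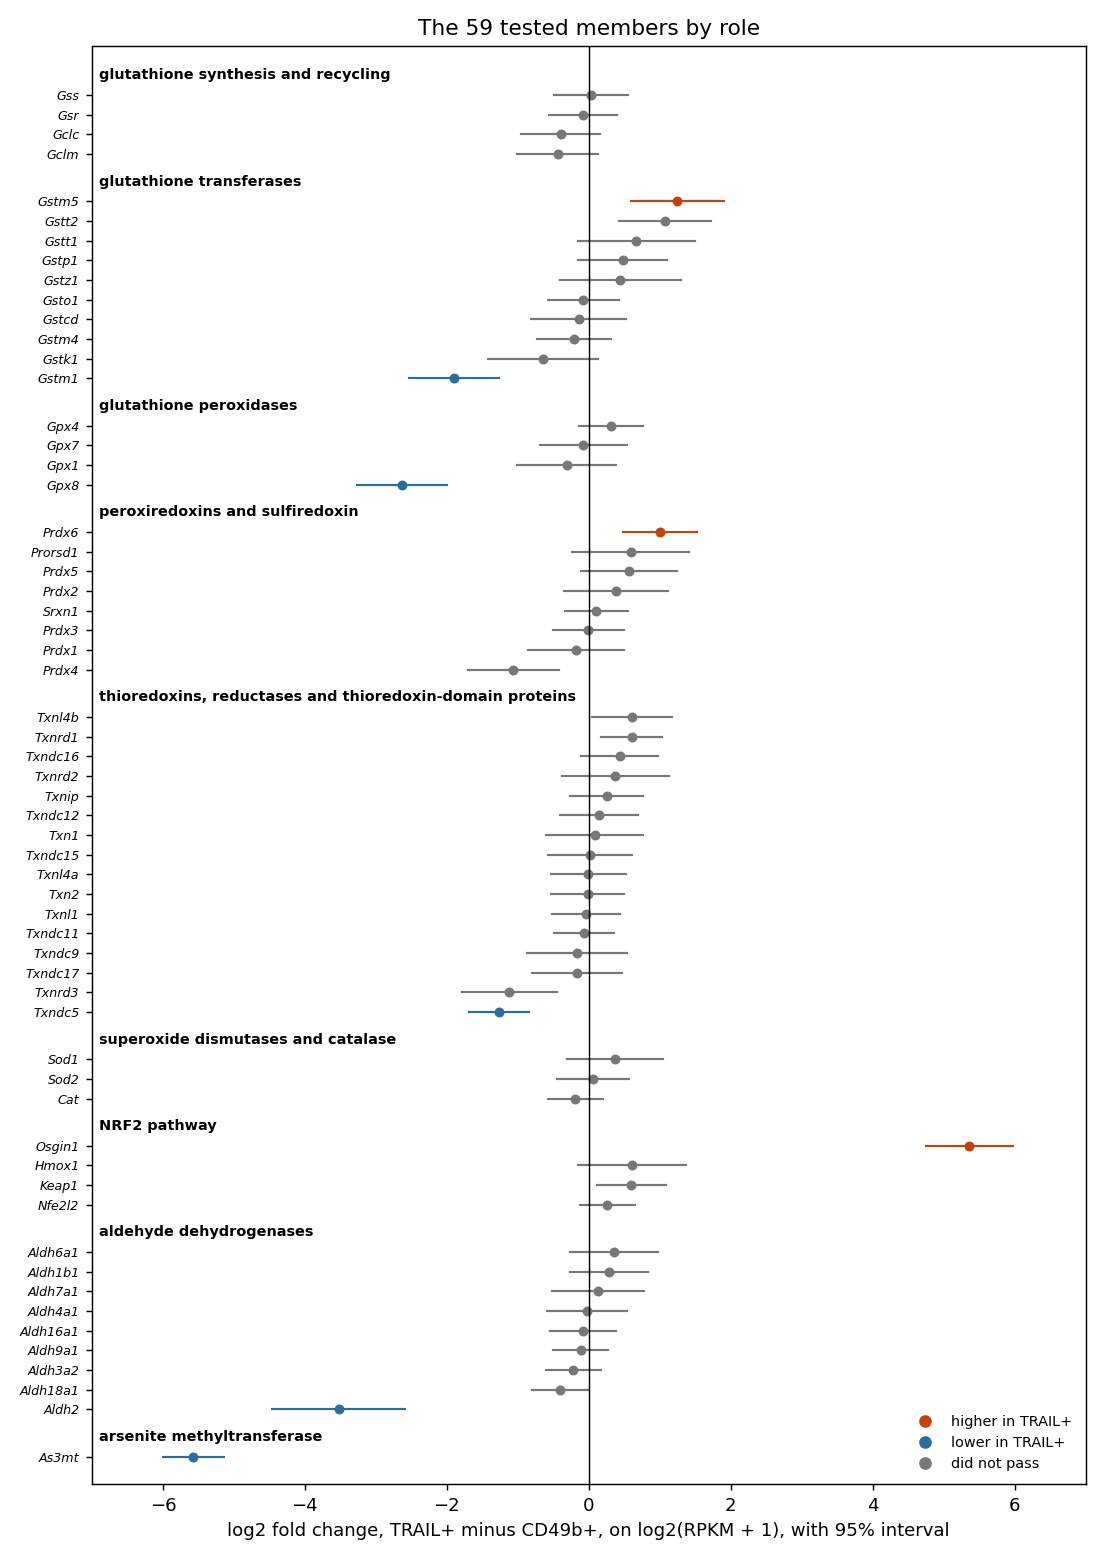
Log2 fold change of the 59 tested members, TRAIL+ minus CD49b+ on log2(RPKM + 1), with 95% intervals from limma, grouped by role and ordered within each group. Most points lie within 1 of 0, and Osgin1 at 5.36, Aldh2 at -3.52 and As3mt at -5.57 stand apart.

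Peroxiredoxin genes were among the most abundant members in both subsets, and Prdx6 was higher in TRAIL+ cells. Prdx6 encodes a peroxiredoxin that also acts as a phospholipase and reduces phospholipid peroxides. It stood at 106 and 146 RPKM (1007 and 1291 reads) in TRAIL+ libraries, against 57.5 and 65.7 RPKM (569 and 604 reads) in CD49b+ libraries. The groups did not overlap and the log2 fold change was 1.00 ± 0.21 (SE, limma adjusted p = 0.0467). The adjusted p lay between 0.0010 and 0.382 over the alternatives, and the call was lost in 6 of them. These were leaving out CD49b+ replicate 1 (0.382) or CD49b+ replicate 2 (0.219), no filter on low values (0.0779), no trend in the prior (0.0640), median-of-ratios scaling (0.0518) and a pseudocount of 0.1 (0.0513).

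Prdx4, the peroxiredoxin of the endoplasmic reticulum, was lower in both TRAIL+ libraries without passing, at 2.75 and 2.96 RPKM in TRAIL+ libraries and 8.66 and 5.70 RPKM in CD49b+ libraries (log2 fold change -1.06, 95% interval -1.70 to -0.42, limma adjusted p = 0.0694). It passed with the replicate block (limma adjusted p = 0.0132). Prdx5, found in mitochondria, peroxisomes and cytosol, was the most abundant peroxiredoxin gene, at 219.8 and 348 RPKM in TRAIL+ libraries and 168.5 and 206 RPKM in CD49b+ libraries. Its groups did not overlap, but the 2 TRAIL+ libraries differed more from each other than TRAIL+ replicate 1 did from CD49b+ replicate 2. Prdx5 did not pass (limma adjusted p = 0.348), though it did with the replicate block. Without TRAIL+ replicate 1 its log2 fold change was 0.90. The cytosolic Prdx2 stood at 80.8 and 132 RPKM in TRAIL+ libraries and 67.0 and 92.5 RPKM in CD49b+ libraries. Prdx1 stood at 65.9 and 110.4 RPKM in TRAIL+ libraries and 91.3 and 102 RPKM in CD49b+ libraries, and the mitochondrial Prdx3 at 49.9 and 65.3 RPKM in TRAIL+ libraries and 52.9 and 62.2 RPKM in CD49b+ libraries. Srxn1, which repairs overoxidised peroxiredoxins and is an NRF2 target, stood at 19.2 and 16.4 RPKM in TRAIL+ libraries and 15.7 and 17.1 RPKM in CD49b+ libraries. Groups overlapped for Prdx1, Prdx2, Prdx3 and Srxn1. Prorsd1 stood at 20.2 and 37.4 RPKM in TRAIL+ libraries and 15.2 and 21.1 RPKM in CD49b+ libraries and did not pass.

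In the thioredoxin group, Txndc5 fell in TRAIL+ cells and 15 of 16 tested members did not pass. The share that passed was 6.25%, beside 8.62% of all tested genes. Txndc5 encodes a protein disulfide isomerase of the endoplasmic reticulum. It stood at 23.9 and 28.3 RPKM (256 and 282 reads) in TRAIL+ libraries, against 66.7 and 61.7 RPKM (742 and 637 reads) in CD49b+ libraries. The log2 fold change was -1.27 ± 0.17 (SE, limma adjusted p = 0.01002), a 2.46-fold ratio. It did not pass when leaving out CD49b+ replicate 1 (adjusted p = 0.117) or CD49b+ replicate 2 (0.0846), while the log2 fold change stayed at -1.21 and -1.32.

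None of the 3 thioredoxin reductase genes passed. Txnrd1, the cytosolic reductase and an NRF2 target, stood at 85.0 and 73.0 RPKM in TRAIL+ libraries and 55.2 and 47.9 RPKM in CD49b+ libraries. Its log2 fold change of 0.61 (95% interval 0.17 to 1.04) did not pass (limma adjusted p = 0.111). Without TRAIL+ replicate 2 its log2 fold change was 0.71. Txnrd1 passed with the gene length term (limma adjusted p = 0.0223) and with the replicate block (0.0106). Txnrd3, a reductase that acts on both thioredoxin and glutathione, stood at 1.64 and 1.11 RPKM in TRAIL+ libraries and 4.97 and 3.39 RPKM in CD49b+ libraries (log2 fold change -1.12, 95% interval -1.79 to -0.45, limma adjusted p = 0.0691). Without TRAIL+ replicate 1 its log2 fold change was -1.28. Txnrd3 passed with the gene length term (limma adjusted p = 0.0428) and with the replicate block (0.00841). The mitochondrial Txnrd2 stood at 4.34 and 7.28 RPKM in TRAIL+ libraries and 4.91 and 3.44 RPKM in CD49b+ libraries, with overlap.

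Txnip, which binds and inhibits thioredoxin, was the most abundant of all members, at 378 and 429 RPKM in TRAIL+ libraries and 302 and 377 RPKM in CD49b+ libraries. By its mean over the 4 libraries it ranked 143 among all rows. The difference between subsets was small and did not pass (log2 fold change 0.25, 95% interval -0.26 to 0.77, limma adjusted p = 0.627). The thioredoxins themselves overlapped between groups. The cytosolic Txn1 stood at 81.2 and 131 RPKM in TRAIL+ libraries and 87.2 and 109 RPKM in CD49b+ libraries, and the mitochondrial Txn2 at 97.0 and 134 RPKM in TRAIL+ libraries and 113 and 117 RPKM in CD49b+ libraries. The other tested members of this group, such as Txndc12, Txndc15, Txndc17 and the splicing factor gene Txnl4a, lay between 4.08 and 54.8 RPKM and had log2 fold changes of -0.16 to 0.61. Txndc2, Txndc8 and Nme8, known from testis, had no read in any library.

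No difference in the superoxide dismutase and catalase genes passed the test. Sod1, the cytosolic enzyme, stood at 98.5 and 158 RPKM in TRAIL+ libraries and 107 and 86.8 RPKM in CD49b+ libraries. Sod2, the mitochondrial enzyme, stood at 19.5 and 26.5 RPKM in TRAIL+ libraries and 21.3 and 22.4 RPKM in CD49b+ libraries. Catalase, encoded by Cat, stood at 49.9 and 54.4 RPKM in TRAIL+ libraries and 57.9 and 61.2 RPKM in CD49b+ libraries. The log2 fold changes were 0.37 for Sod1 (95% interval -0.30 to 1.04), 0.05 for Sod2 (-0.45 to 0.56) and -0.19 for Cat (-0.57 to 0.20). Of these 3 genes, 0 had an unadjusted limma p under 0.05, beside 2006 of all 10047 tested genes, and voom called 0. Groups overlapped for both Sod genes and not for Cat.

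**Figure D3:**
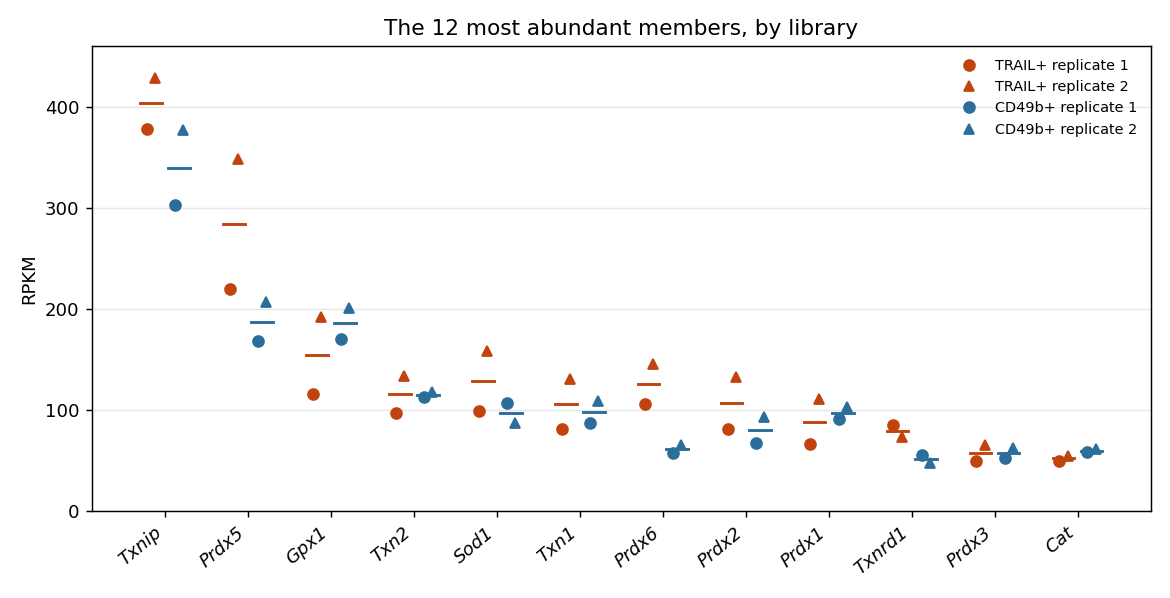
RPKM of the 12 members with the highest mean over the 4 libraries, with circles for replicate 1, triangles for replicate 2 and a bar at the mean of each group of 2 libraries. The TRAIL+ libraries of Prdx5, Gpx1, Sod1 and Prdx2 lie far apart from each other, with replicate 2 above replicate 1.

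The spread of the short, abundant members lay mostly between the 2 TRAIL+ libraries. Of the 21 tested members with a gene length of up to 1500 bases, 20 were higher in TRAIL+ replicate 2 than in TRAIL+ replicate 1, by a median of 0.59 on the log2 scale. The same 21 members were higher in CD49b+ replicate 2 than in CD49b+ replicate 1 in 16 cases, by a median of 0.19. Over all 1841 tested genes of that length the medians were 0.43 between the TRAIL+ replicates and 0.16 between the CD49b+ replicates, and over 4617 tested genes longer than 3000 bases they were -0.24 and -0.06. By the lengths worked out from the RPKM steps, Gpx1, Sod1, Txn1, Prdx1 and Prdx2 are all of up to 1500 bases. For Gpx1, Prdx1 and Prdx2 that length was not within 10% of an annotated one. The difference between replicates thus moved with gene length, and its part in the results was not tested. Without TRAIL+ replicate 1, calls over all tested genes grew to 777 higher and 763 lower, against 478 and 388 with all libraries. Among them, 8 members were higher and 6 were lower, the added ones being Gstt2, Prdx5, Prorsd1, Gstp1 and Sod1 among the higher and Txnrd3 among the lower.

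**Figure D4:**
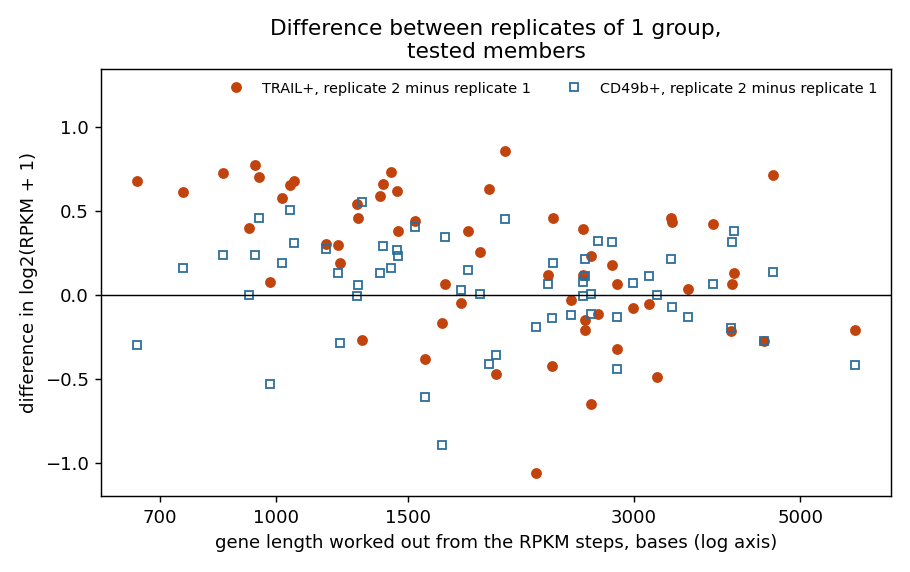
Difference in log2(RPKM + 1) between replicate 2 and replicate 1 of the same group for the 59 tested members, against gene length on a log axis. Filled circles are TRAIL+ and open squares CD49b+. Among members of up to 1500 bases, 20 of 21 TRAIL+ points lie above 0.

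Genes that work with these members were counted from 7 lists. Beside these counts, and those of the cell type markers, 8.62% of all 10047 tested genes were called. An unadjusted limma p under 0.05 was found for 2006 of all tested genes. Of 18 tested NRF2 targets outside the members, 1 fell and 17 did not pass. The one that fell was Abcc4, an exporter of glutathione conjugates and other organic anions, at 2.44 and 2.27 RPKM in TRAIL+ libraries and 5.74 and 5.71 RPKM in CD49b+ libraries (log2 fold change -1.002 ± 0.20, SE, limma adjusted p = 0.0424), a call lost without TRAIL+ replicate 2, CD49b+ replicate 1 or CD49b+ replicate 2 (adjusted p = 0.0576, 0.326 and 0.285), with no filter (0.0826) or with a minimum of 5 RPKM (0.0559). Fth1, the ferritin heavy chain, was the most abundant of that list, at 1086 and 1561 RPKM in TRAIL+ libraries and 732 and 784 RPKM in CD49b+ libraries, and did not pass (limma adjusted p = 0.178).

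Among 9 tested partners and repressors of NRF2, 2 fell and 7 did not pass. Nfe2, a bZIP factor of the NRF2 family known from platelets and red cell precursors, stood at 0.882 and 0.632 RPKM in TRAIL+ libraries and 8.06 and 7.91 RPKM in CD49b+ libraries (log2 fold change -2.36 ± 0.22, SE, limma adjusted p = 0.00315). The Nfe2 level reached the minimum RPKM through the CD49b+ libraries alone. Bach2, a bZIP repressor of lymphocytes, stood at 2.78 and 1.66 RPKM in TRAIL+ libraries and 7.48 and 6.80 RPKM in CD49b+ libraries (log2 fold change -1.36 ± 0.25, SE, limma adjusted p = 0.0316), a call lost without CD49b+ replicate 1 (0.183), CD49b+ replicate 2 (0.122) or the filter on low values (0.0723). Cul3, the ubiquitin ligase scaffold that works with Keap1, was the most abundant of these, at 93.3 and 74.7 RPKM in TRAIL+ libraries and 82.1 and 75.2 RPKM in CD49b+ libraries.

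Of 7 tested glutaredoxins and methionine sulfoxide reductases, 1 rose and 6 did not pass. Glrx, the cytosolic glutaredoxin that removes glutathione from proteins, stood at 116 and 158 RPKM in TRAIL+ libraries, against 22.7 and 24.5 RPKM in CD49b+ libraries (log2 fold change 2.47 ± 0.20, SE, limma adjusted p = 0.00242). Of 8 tested NADPH oxidase subunits, 2 rose and 6 did not pass. Ncf1, the organising subunit of the phagocyte oxidase, stood at 35.1 and 34.2 RPKM in TRAIL+ libraries, against 5.62 and 5.21 RPKM in CD49b+ libraries (log2 fold change 2.47 ± 0.17, SE, limma adjusted p = 0.00133). The catalytic subunit gene Cybb followed the replicates instead, at 3.50 and 0.610 RPKM in TRAIL+ libraries and 4.61 and 0.374 RPKM in CD49b+ libraries, as the myeloid gene Lyz2 did. Nox1 had 24 and 17 reads in TRAIL+ libraries and 1 and 2 reads in CD49b+ libraries, which is 14.2 times as many reads (exact 95% interval for counting error 4.53 to 71.7) and passed with limma (adjusted p = 0.0130), a call lost without CD49b+ replicate 1 (0.0569). Nox1 entered the test only through the TRAIL+ libraries. Its read counts and their interval rest on a gene length that was not within 10% of an annotated one. Rac2, the most abundant of the list, stood at 677 and 823 RPKM in TRAIL+ libraries and 720 and 803 RPKM in CD49b+ libraries.

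Among 12 tested aldehyde and alcohol enzymes outside the members, 1 fell and 11 did not pass. Dhrs3, which reduces retinaldehyde to retinol, stood at 0.681 and 0.586 RPKM (5 and 4 reads) in TRAIL+ libraries, against 40.3 and 39.0 RPKM (308 and 277 reads) in CD49b+ libraries (log2 fold change -4.64 ± 0.19, SE, limma adjusted p = 0.000427). Dhrs3 met the minimum RPKM only through the CD49b+ libraries, where it is high. Akr1a1, an aldehyde reductase, was the most abundant of them, at 226 and 291 RPKM in TRAIL+ libraries and 201 and 234 RPKM in CD49b+ libraries. The 8 tested genes of glutathione turnover and microsomal transferases gave 0 calls with limma and 0 with voom, and 2 had an unadjusted p under 0.05. The 11 tested genes of NADPH supply likewise gave 0 calls with either, and 1 had an unadjusted p under 0.05. Their most abundant members were Slc3a2, an amino acid transporter subunit, at 64.1 and 64.0 RPKM in TRAIL+ libraries and 65.1 and 64.5 RPKM in CD49b+ libraries, and Pgd, of the pentose phosphate pathway, at 64.8 and 78.4 RPKM in TRAIL+ libraries and 60.0 and 61.5 RPKM in CD49b+ libraries.

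Hepatocytes express Aldh2 and Gstm1 at high level, so the hepatocyte markers were set beside them. The 13 markers summed to 109.8 and 102 RPKM in TRAIL+ libraries and 58.5 and 24.4 RPKM in CD49b+ libraries, none was at 0 in all libraries, and 1 of 7 tested was called, Trf, which was higher in TRAIL+ cells. Trf, the transferrin gene, made up most of the sum, at 83.1 and 96.9 RPKM in TRAIL+ libraries and 21.2 and 22.1 RPKM in CD49b+ libraries. Without Trf the other 12 markers summed to 26.7 and 5.52 RPKM in TRAIL+ libraries and 37.3 and 2.31 RPKM in CD49b+ libraries, higher in replicate 1 of both groups. The part of hepatocyte RNA in Aldh2 and Gstm1 was not tested. The 11 markers of Kupffer cells and monocytes summed to 110.5 and 28.9 RPKM in TRAIL+ libraries and 143 and 16.1 RPKM in CD49b+ libraries, with Lyz2 leading, Cd68 next at 5.09 and 3.13 RPKM in TRAIL+ libraries and 7.69 and 5.77 RPKM in CD49b+ libraries, Marco at 0 and no marker called (limma, 1 of 8 with an unadjusted p under 0.05). Of these 8 tested markers, 6 had a log2 fold change above 0. The complement gene C1qa, the one with an unadjusted p under 0.05, stood at 5.21 and 4.38 RPKM in TRAIL+ libraries and 1.31 and 0 RPKM in CD49b+ libraries (limma adjusted p = 0.0549). Clec4f, a Kupffer cell gene too low to be tested, had 21 reads over the TRAIL+ libraries and 2 over the CD49b+ libraries. Endothelial and stellate markers other than Pecam1 were near 0, with Lyve1, Dcn, Col3a1 and Reln at 0 in all libraries. Red cell markers, led by Hbb-b2 and Alas2, summed to 101 and 33.8 RPKM in TRAIL+ libraries and 110.45 and 5.73 RPKM in CD49b+ libraries, and neutrophil markers, led by S100a9 and S100a8, to 20.3 and 3.97 RPKM in TRAIL+ libraries and 21.7 and 0.644 RPKM in CD49b+ libraries. T cell markers summed to 74.8 and 135 RPKM in TRAIL+ libraries and 38.9 and 43.6 RPKM in CD49b+ libraries, with 4 of 5 tested higher and 1 lower in TRAIL+ cells, although the gate took TCRb-negative cells. Cd3d stood at 29.99 and 59.9 RPKM in TRAIL+ libraries and 10.4 and 10.1 RPKM in CD49b+ libraries, and Cd3e at 21.3 and 43.2 RPKM in TRAIL+ libraries and 2.62 and 3.87 RPKM in CD49b+ libraries. Cd28, the 1 that was lower, stood at 7.50 and 10.2 RPKM in TRAIL+ libraries and 22.9 and 29.0 RPKM in CD49b+ libraries. Too low to be tested, Cd8b1 had 1 read over the TRAIL+ libraries and 8 over the CD49b+ libraries. In the same order Cd5 had 5 and 5 reads, and Cd6 had 15 and 9. B cell markers summed to 23.2 and 16.8 RPKM in TRAIL+ libraries and 24.6 and 12.8 RPKM in CD49b+ libraries, led by Cd79b and Cd79a, and 0 of 4 tested passed with limma (1 with an unadjusted p under 0.05). The bile duct marker Epcam, which entered the test only through TRAIL+ libraries, as did Cd4 and Cd8a, stood at 17.2 and 18.1 RPKM in TRAIL+ libraries and 0 and 0.123 RPKM in CD49b+ libraries and Spp1 at 1.04 and 1.30 RPKM in TRAIL+ libraries and 5.84 and 5.92 RPKM in CD49b+ libraries, with Krt19, Krt7 and Sox9 at 0 in all libraries. Of 8 NK markers, Prf1 was lower in TRAIL+ cells and 7 did not pass. The part of the T cell markers in the members that rose was not tested. None of the 8 called members followed this order of replicates in both groups other than Aldh2 and Osgin1, which were higher in replicate 1 of each group, and the part of other cells in their values was not tested.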

How the data were processed

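RNA of 2 TRAIL+ and 2 CD49b+ libraries had been sequenced, and the authors deposited 1 table of RPKM values per library. Per the submitters' processing notes, the aligner was TopHat 1.4.1 and the genome mm9. No source used here names the counting software, the gene models or the strand setting. RPKM steps gave whole reads for 99.978% of rows above 0 (relative tolerance 1e-06), and read counts and gene lengths come from them. Such lengths were within 10% of an annotated one for 81.1% of rows with a single annotated transcript. They were so for 59 of the 74 members with reads. Aldh2, Gpx1, Prdx1, Prdx2, Keap1, Txnrd1 and Nox1 were outside this limit, so their read counts and lengths are less certain. Intervals on reads cover counting error only.

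Genes with at least 1 RPKM in at least 2 of 4 libraries were tested with limma 3.58.1 (R 4.3.3; trend in the prior) on log2(RPKM + 1), with p-values adjusted over all 10047 tested genes by Benjamini-Hochberg. The fit has 2 residual degrees of freedom. An exact permutation test of 2 against 2 cannot go below 0.333 and was not used. The fit was also run on simulated reads, drawn separately for each gene without a replicate or gene length effect. That run therefore cannot show how such effects alter the calls. A log2(value + 1) fold understates changes of low genes, so the ratios in the text are those of mean RPKM.

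The genes named are the called members, those listed singly above, the 3 most abundant of each role group, uncalled members without overlap and a log2 fold change of at least 1, up to 3 called and the most abundant of each related list, the 2 leading markers of each cell type and the gate genes. Other members named to complete a role group, and other genes of the lists such as Maff, were chosen after their values were seen. The members and lists were chosen with earlier results of these data known, and the related lists and cell type markers come from general knowledge. Alternatives were another pseudocount, other filters, median-of-ratios and quantile scaling, no trend, voom on whole reads, a replicate block and leaving out each library. A gene length correction was added after seeing the data.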

Additional observations from a re-analysis of the deposited data

How the results depend on the processing

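Osgin1, As3mt, Aldh2 and Gpx8, with Nfe2, Glrx, Ncf1 and Dhrs3 of the related lists, passed in every alternative that was run. Nfe2 and Dhrs3 met the minimum RPKM only through the CD49b+ libraries, where they are high. Over 24 named genes, the alternatives gave 308 values, of which 271 kept their direction and side of the threshold, 23 no longer passed, 14 newly passed and 0 reversed. With 1 library left out, 1 to 8 members were higher and 3 to 6 lower in TRAIL+ cells, and over all genes 245 to 777 were higher and 198 to 763 lower. The replicate numbers could not be shown to pair the libraries, since the labels do not say that they mark a shared mouse or day and there are only 2 pairs, although same-numbered libraries deviated together (r = 0.563 across 10047 genes, which are not independent). With the replicate block, 8 members and 1049 of all genes were higher, and 7 members and 833 of all genes were lower. Members that newly passed with the block as higher include Gstt2 (limma adjusted p = 0.00690), Txnrd1 (0.0106), Keap1 (0.0193) and Prdx5 (0.0313). Those that newly passed as lower include Txnrd3 (0.00841) and Prdx4 (0.0132). With the gene length correction, chosen after seeing the data, 6 members and 731 of all genes were higher, and 6 members and 599 of all genes were lower. Why these settings call more genes was not tested. Depth limits the members under about 10 reads, such as Gstm5 and the Aldh1a genes.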
